A study of Homo sapiens with 6 samples.

Results

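The 4 genes described here are IL15 and IL18, which encode cytokines that activate natural killer and T cells, with IL15RA, the alpha chain of the interleukin-15 receptor, and IL18BP, a secreted protein that binds interleukin-18. They were chosen by name, with earlier results of these data known, and all 4 were found among the 19402 genes of the deposited count table. Poly(A)-selected RNA of CFPAC1 cells, an established line of human pancreatic ductal adenocarcinoma, had been sequenced in 6 libraries. Of these, 3 came from pools of clones labelled IRF1-KO, isolated by dilution from cells infected with the lentiCRIPSv2 plasmid carrying wild-type Cas9 and a guide RNA against IRF1. The other 3 came from pools of WT clones, isolated in the same way from cells infected with lentiCRIPSv2, for which the labels name no guide. All pools derive from 1 cell line and were grown in IMDM with fetal bovine serum, and the labels name no interferon treatment for them. Nor do they tell whether each pool was a separate culture, and the p-values therefore rest on a spread that may be technical.

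Interleukin-15 is unusual among cytokines in that the producing cell presents it: the alpha chain binds the cytokine with high affinity and carries it to the cell surface, where it is shown to a neighbouring lymphocyte that has the beta chain and the common gamma chain of the receptor. Interleukin-18 belongs to the interleukin-1 family and is made by many epithelia as an inactive precursor that caspase-1 cuts. Its soluble antagonist, the binding protein, captures the mature cytokine before it reaches its receptor. IRF1 is an interferon-induced transcription factor known to bind promoters of interferon-responsive genes, and IL15, IL15RA and IL18BP are all known as interferon-responsive genes in human cells.

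The genes lie on 3 chromosomes, with all coordinates on GRCh38 as the file gives them. IL15 (ENSG00000164136.17) spans chromosome 4, 141636583 to 141733987, on the plus strand, with 7876 bases of exon. IL15RA (ENSG00000134470.21) spans chromosome 10, 5943639 to 5978187, on the minus strand, with 3633 bases of exon. IL18 (ENSG00000150782.12) spans chromosome 11, 112143253 to 112164096, on the minus strand, with 2605 bases of exon, and IL18BP (ENSG00000137496.17) spans chromosome 11, 71998541 to 72005715, on the plus strand, with 4323 bases of exon. In the table, IL18BP shares 675 bases, or 15.6% of its exon length, with NUMA1 on the opposite strand. As the strand setting of the counting is not given in the sources used here, reads from those bases cannot be told apart, and IL18BP values are uncertain to that extent. The exons of IL15, IL15RA and IL18 overlap no other gene of the table, although IL15RA shares 151 bases (4.16% of its exon length) with AL137186.2, a same-strand gene of GENCODE 29.

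Promoter windows (250 bases before to 50 after an annotated start, from RefSeq on GRCh38.p14) were matched for 2 of the 4 genes, with 4 windows each for IL15RA and IL18BP. They were searched on both strands for a repeat to which interferon regulatory factors are known to bind, GAAA followed by any 2 bases and again GAAA, and for its shorter core AANNGAAA, which lies within the repeat. The 2 stretches below are shown because they hold the matches, which are in capitals; both are written 5′ to 3′ on the strand of the gene.
IL15RA, chr10:5977591-5977620, minus strand: ggccaaagcaaAAGCGAAAgcgaatgcgac
IL18BP, chr11:71999540-71999569, plus strand: gttaaaaagtGAAAGTGAAAtagagggtcg
The IL18BP stretch holds the full repeat, which was present in 3.57% of the 35116 windows of all genes, and 2 overlapping matches of the core lie in or next to it. The repeat begins 67 bases before the start at 71999617, inside an exon of the deposited model and in the annotated UTR of 2 GENCODE 29 transcripts. The IL15RA stretch holds the core without the full repeat. The core, with or without the full repeat, was present in 22.8% of windows. Its match lies at 5977602 to 5977609, from 2 bases after the start at 5977611 and 66 bases before the start at 5977543, inside an exon and in the UTR of 5 GENCODE 29 transcripts. An NF-kappaB-like motif, GGG and CC with any 5 bases between, was found in windows of both genes, as in 58.7% of all windows. A match describes the letters only.

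Total counts ranged from 16413682 to 28258075 per library, and 13388 genes were counted deeply enough to be tested, among them all 4 genes of interest. IRF1 itself had 117, 123 and 132 CPM (counts scaled to library size with TMM factors) in the libraries labelled IRF1-KO, replicates 1 to 3, against 87.3, 91.3 and 82.6 CPM in WT. Its transcript thus had higher values in IRF1-KO in every library (log2 fold change 0.51 ± 0.10, SE; edgeR quasi-likelihood adjusted p = 0.135, DESeq2 adjusted p = 0.00105). The exons of IRF1 share 1716 bases (22.1% of their length) with C5orf56 and 469 bases (6.03%) with AC116366.3, opposite-strand genes of GENCODE 29. The strand setting is not given, and the part of these genes in the IRF1 counts was not tested. Counts over every exon cannot show a small insertion or deletion, so the knockout is unchecked here, and every direction given here is that of libraries carrying this label. Of 9 ductal epithelial markers 8 were tested, and their summed level lay between 1376 and 1922 RPKM (CPM per kilobase of exon) in IRF1-KO and between 1260 and 2159 RPKM in WT; CFTR was not tested, with 23 counts in IRF1-KO and 26 in WT over 3 libraries each.

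The IL-15 pair had lower values in the libraries labelled IRF1-KO, and the IL-18 pair had smaller differences. IL15RA fell 3.24-fold and passed the test over all genes. IL15, with a difference as large as that of its receptor chain, did not pass. IL18 and IL18BP had values of 0.835-fold and 0.809-fold of WT, with intervals that include no difference. IL15RA was thus the 1 gene of the 4 past an adjusted p of 0.05 with edgeR, against 0.127% of all tested genes (15 lower, 0.112%, and 2 higher, 0.0149%). DESeq2 called 2 of the 4 (IL15 and IL15RA), against 2.53% of the genes it tested, of which 0.983% were lower and 1.55% higher. limma-voom called 1 of the 4 (IL15RA), against 0.134% of genes, 0.12% lower and 0.0149% higher. In these bulk libraries, fewer cells that express a gene and less RNA per cell cannot be told apart.

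**Figure D1:**
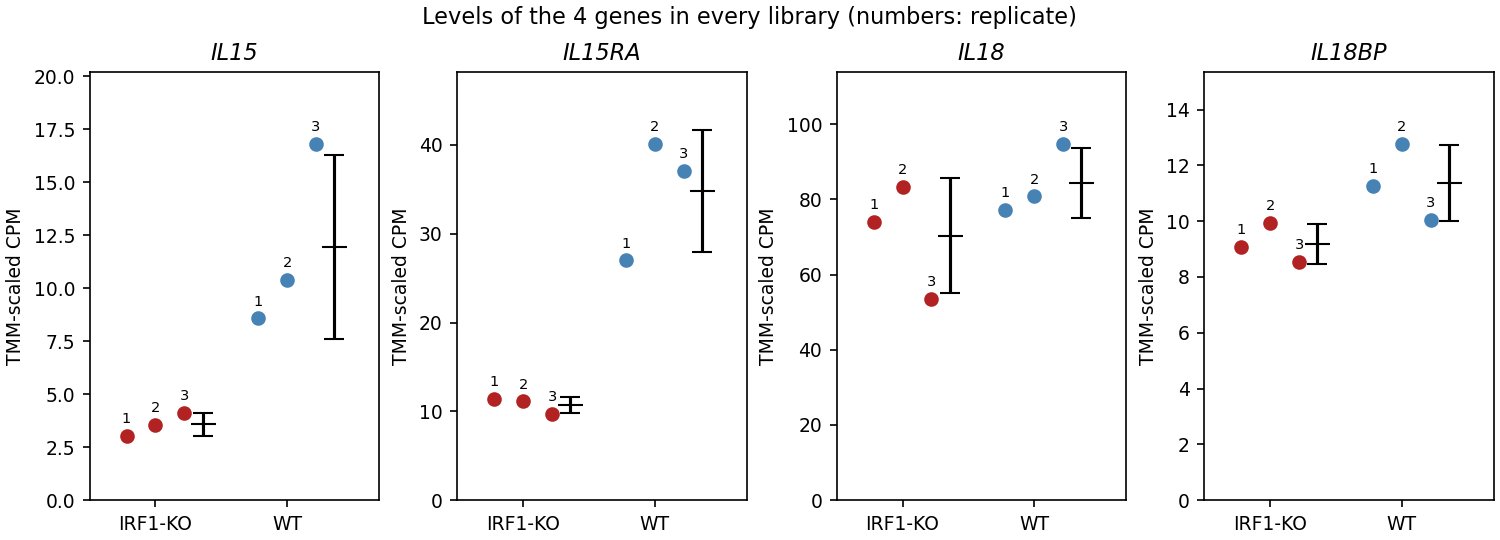
TMM-scaled CPM of IL15, IL15RA, IL18 and IL18BP (vertical axes, each from 0) in the IRF1-KO and WT libraries; points are libraries numbered by replicate, and the bar beside them is the mean ± SD of 3. The groups lie apart for IL15 and IL15RA, lie close without overlap for IL18BP, and overlap for IL18.

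IL15RA, which holds interleukin-15 on the cell that makes it, had 187, 319 and 259 counts in IRF1-KO replicates 1 to 3, and 494, 738 and 772 counts in WT replicates 1 to 3. Scaled to library size these were 11.4, 11.1 and 9.70 CPM in IRF1-KO and 27.0, 40.1 and 37.1 CPM in WT. The IRF1-KO libraries lay within a narrow band, and the lowest WT library, replicate 1, was still far above all of them. The means were 10.7 ± 0.915 CPM in IRF1-KO and 34.8 ± 6.86 CPM in WT (SD, n = 3 each). On the log2 scale the fold change was −1.69 ± 0.18 (SE), its 95% interval being −2.11 to −1.28, or 2.43-fold to 4.32-fold lower (edgeR quasi-likelihood, Benjamini-Hochberg adjusted p = 0.0193). Ranked by p, IL15RA was number 12 of the 13388 genes.

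The call for IL15RA depended on which libraries were included, while its size stayed close. Leaving out each library in turn gave log2 fold changes from −1.83 to −1.58. The adjusted p was 0.128, 0.0760 and 0.167 without IRF1-KO replicates 1, 2 and 3 in turn and 0.119 without WT replicate 2, whereas the gene stayed past the threshold without WT replicate 1 (0.0253) or WT replicate 3 (0.0409). DESeq2 gave an adjusted p of 6.79e-13 and limma-voom one of 0.0377, whereas edgeR with the replicate number as a block gave 0.0509, not past the threshold. With a correction for GC content the log2 fold change was −1.68 (adjusted p = 0.0165, edgeR quasi-likelihood); the longest protein-coding IL15RA transcript is 57.7% GC.

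IL15, the cytokine itself, was counted at low levels. It had 50, 102 and 110 counts in IRF1-KO replicates 1 to 3 and 157, 191 and 350 counts in WT replicates 1 to 3, which corresponds to 3.05, 3.56 and 4.12 CPM in IRF1-KO and 8.59, 10.4 and 16.8 CPM in WT. Every IRF1-KO library lay below every WT library, and WT replicate 3 stood above the other WT libraries. In that library all 8 tested ductal markers were at their lowest among the WT libraries, and their part in the IL15 value was not tested. CDH1, the E-cadherin gene, had 279, 422 and 239 CPM in IRF1-KO and 499, 378 and 107 CPM in WT, and KRT7, a ductal keratin gene, had 316, 777 and 336 CPM in IRF1-KO and 508, 480 and 157 CPM in WT. The smallest count, 50, has a 95% Poisson interval of 37.1 to 65.9, which covers counting error only. The means were 3.58 ± 0.536 CPM in IRF1-KO and 11.9 ± 4.33 CPM in WT (SD, n = 3 each), and the relative spread of 36.3% in WT exceeded the counting error of 5.35% to 7.98% in those libraries.

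The log2 fold change of IL15 was −1.73 ± 0.29 (SE), with a 95% interval of −2.41 to −1.05, or 2.08-fold to 5.33-fold lower. With edgeR its adjusted p of 0.105 (0.000417 before adjustment) missed the threshold. DESeq2 called it, at −1.73 with an adjusted p of 4.07e-05, as it called IL15RA. limma-voom did not (adjusted p = 0.131). Without WT replicate 3 the log2 fold change was −1.38, and over the 6 fits without 1 library it ranged from −1.90 to −1.38 with adjusted p from 0.0668 to 0.403. The longest protein-coding transcript of IL15 is 38.7% GC, well below that of IL15RA, and with the correction for GC content the 2 genes had the same rounded value of −1.68.

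IL18, made as a precursor and stored in epithelial cells, was the most abundant of the 4. It had 1215, 2389 and 1431 counts in IRF1-KO replicates 1 to 3 and 1411, 1485 and 1973 counts in WT replicates 1 to 3. The scaled values were 74.1, 83.4 and 53.6 CPM in IRF1-KO and 77.2, 80.8 and 94.8 CPM in WT, so that the groups overlap and IRF1-KO replicate 3 is the low value. The means were 70.4 ± 15.2 CPM in IRF1-KO and 84.3 ± 9.32 CPM in WT (SD, n = 3 each). This is a log2 fold change of −0.26 ± 0.18 (SE; 95% interval −0.67 to 0.15; edgeR quasi-likelihood adjusted p = 0.747), and it was −0.0983 without IRF1-KO replicate 3. A fall of more than 1.59-fold lies outside the interval.

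IL18BP, the interleukin-18 antagonist, had 149, 285 and 228 counts in IRF1-KO replicates 1 to 3 and 206, 235 and 209 counts in WT replicates 1 to 3. The scaled values were 9.08, 9.95 and 8.54 CPM in IRF1-KO and 11.3, 12.8 and 10.0 CPM in WT. Every IRF1-KO library was below every WT library, by a small margin between IRF1-KO replicate 2 and WT replicate 3. IL15, IL15RA and IL18BP all showed this order, as did 6.75% of all tested genes (8.03% showed the opposite order). The means of IL18BP were 9.19 ± 0.711 CPM in IRF1-KO and 11.4 ± 1.37 CPM in WT (SD, n = 3 each). This is a log2 fold change of −0.31 ± 0.17 (SE; 95% interval −0.70 to 0.09; edgeR quasi-likelihood adjusted p = 0.676), and a fall of more than 1.63-fold lies outside the interval. NUMA1, a mitotic spindle protein gene that overlaps IL18BP, had 256, 243 and 246 CPM in IRF1-KO and 241, 238 and 257 CPM in WT, far more than IL18BP. Its part in the IL18BP counts was not tested.

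**Figure D2:**
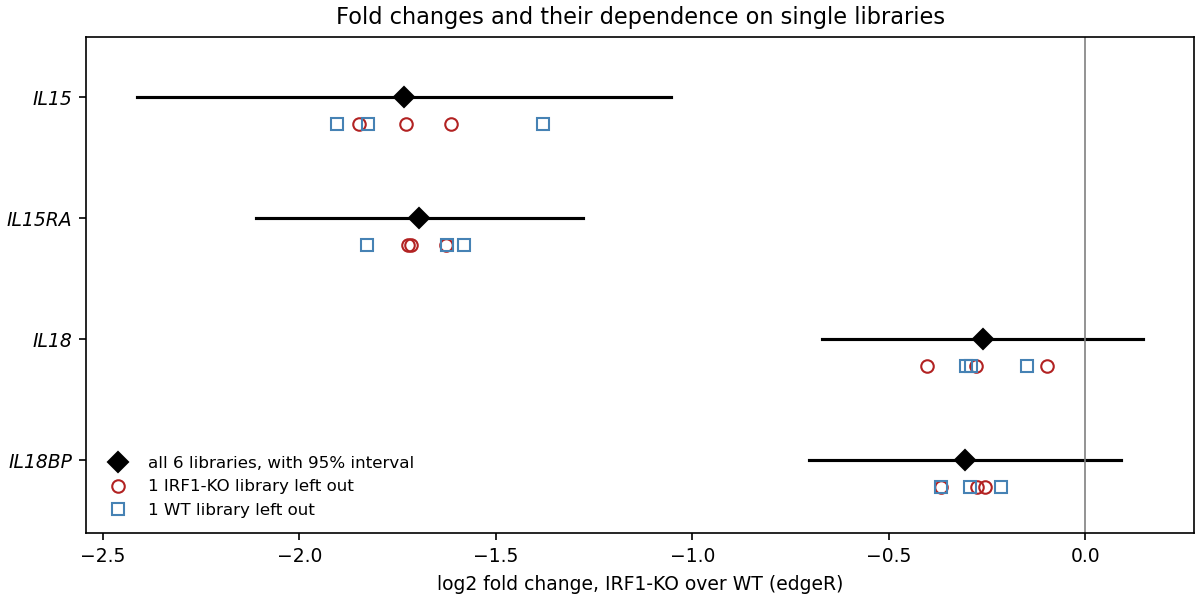
Fitted log2 fold change of IRF1-KO over WT for the 4 genes (horizontal axis); diamonds and lines are the fit on all 6 libraries with its 95% interval, circles and squares the fits that leave out 1 IRF1-KO or 1 WT library. The IL15 and IL15RA estimates stay between −1.90 and −1.38, and those of IL18 and IL18BP between −0.40 and −0.0983.

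Per length of exon in the deposited model, the order of the 4 genes was the same in every library, IL18 first, then IL15RA, IL18BP and IL15. This order depends on the lengths used: in CPM, IL15 (16.8) stood above IL18BP (10.0) in WT replicate 3. IL18 averaged 27.0 ± 5.85 RPKM in IRF1-KO and 32.4 ± 3.58 RPKM in WT (SD, n = 3 each). IL15RA averaged 2.96 ± 0.252 RPKM in IRF1-KO and 9.57 ± 1.89 RPKM in WT, and IL18BP averaged 2.13 ± 0.164 RPKM in IRF1-KO and 2.63 ± 0.317 RPKM in WT. IL15 averaged 0.454 ± 0.0680 RPKM in IRF1-KO and 1.52 ± 0.549 RPKM in WT. Neighbours in this order did not overlap between libraries of 1 group. In IRF1-KO the lowest IL15RA level was 2.67 RPKM and the highest IL18BP level was 2.30 RPKM, and in WT the lowest IL18BP level was 2.32 RPKM and the highest IL15 level was 2.14 RPKM. Among all tested genes the mean level of IL15RA stood at percentile 34.8 in IRF1-KO and 66.0 in WT, and that of IL15 at percentile 9.92 in IRF1-KO and 22.7 in WT. The mean level of IL18 stood at percentile 87.4 in IRF1-KO and 89.7 in WT, and that of IL18BP at percentile 28.5 in IRF1-KO and 32.5 in WT.

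With 0.1 RPKM added, the ratio of the receptor chain to its ligand showed no group difference beyond the spread. The log2 ratio of IL15RA to IL15, from RPKM with 0.1 added, was 2.73, 2.52 and 2.15 in IRF1-KO replicates 1 to 3 and 2.66, 2.97 and 2.21 in WT replicates 1 to 3. The groups overlap, with means of 2.47 ± 0.294 in IRF1-KO and 2.61 ± 0.386 in WT (SD, n = 3 each) and a difference of −0.15 (exact permutation test, two-sided, p = 0.7). With 1 RPKM added in place of 0.1 the difference was −0.63 and the groups did not overlap. Its exact permutation p of 0.1 is the smallest that 3 against 3 libraries allow. IL15 stood at 0.387 to 0.523 RPKM in IRF1-KO, below the 1 RPKM added, and the part of the added value in that difference was not tested. With 0.01 RPKM added the difference was −0.00548. Without IRF1-KO replicate 3 the difference was 0.0121 and without WT replicate 2 it was 0.0341.

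The ratio of the binding protein to its ligand likewise showed no group difference beyond the spread. The log2 ratio of IL18BP to IL18 was −3.70, −3.74 and −3.32 in IRF1-KO replicates 1 to 3 and −3.46, −3.35 and −3.91 in WT replicates 1 to 3, and the groups overlap. The means were −3.58 ± 0.233 in IRF1-KO and −3.57 ± 0.300 in WT (SD, n = 3 each), and the difference was −0.0123 (exact permutation test, two-sided, p = 1). Its sign turned in several fits with fewer libraries, within −0.18 to 0.10.

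Ratios taken across the 2 axes did not overlap between groups. These comparisons were chosen after the values were seen. The log2 ratio of IL15 to IL18 was −5.87, −5.86 and −5.05 in IRF1-KO and −4.64, −4.45 and −4.03 in WT, a difference of −1.22. The log2 ratio of IL15RA to IL18BP was 0.56, 0.40 and 0.42 in IRF1-KO and 1.48, 1.87 and 2.09 in WT, a difference of −1.35. On the linear scale IL15RA stood at 1.33 to 1.49 times the RPKM of IL18BP in IRF1-KO and at 2.85 to 4.40 times in WT. Both differences had an exact two-sided permutation p of 0.1, which is the smallest that 3 against 3 libraries allow, and 0.2 after adjustment over the 4 ratios compared. With 1 RPKM added, the IL15 to IL18 difference was −0.50 and the groups overlapped (exact permutation p = 0.2).

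**Figure D3:**
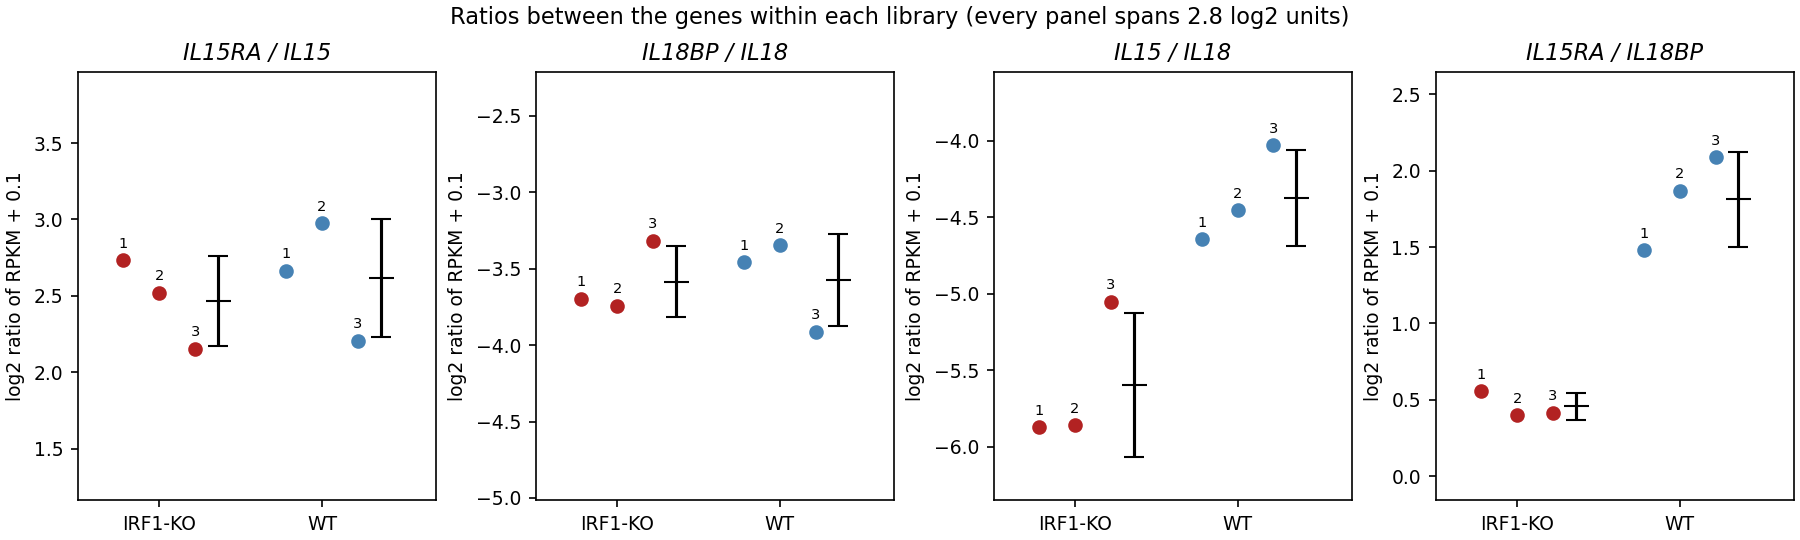
Log2 ratio of RPKM + 0.1 between pairs of the 4 genes within each library (vertical axes, all of the same span), IRF1-KO left of WT; points are libraries numbered by replicate, and the bar beside them is the mean ± SD of 3. The groups overlap for IL15RA over IL15 and IL18BP over IL18, and lie apart for IL15 over IL18 (−1.22) and IL15RA over IL18BP (−1.35).

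The genes whose profiles over the 6 libraries were nearest to the members differed between the axes. Likeness was the root mean square difference between log2 CPM profiles, each centred on its own mean, so the group difference is part of it. For IL15RA the nearest were ERAP2, which trims peptides in the endoplasmic reticulum for antigen presentation (0.198), PARP12, an interferon-induced ADP-ribosyltransferase (0.215), and TLR3, the sensor of double-stranded RNA (0.230). For IL15 they were PARP12 (0.208), UBE2L6, the conjugating enzyme for ISG15 (0.208), and the signalling adaptor gene PIK3AP1 (0.215). IL15 and IL15RA were 0.302 apart. ERAP2 and TLR3 fell by 1.74 and 1.85 on the log2 scale (adjusted p = 0.00737 for both, edgeR quasi-likelihood). Both calls were lost without IRF1-KO replicate 1 (adjusted p = 0.0711 for ERAP2 and 0.0824 for TLR3) or replicate 3 (0.0659 for both), and that of ERAP2 without WT replicate 2 (0.0586). PARP12, UBE2L6 and PIK3AP1 had log2 fold changes of −1.54, −1.49 and −1.53 and were not past the threshold (adjusted p = 0.0555, 0.0616 and 0.0555). DESeq2 called all 3 of these (adjusted p = 1.27e-08, 1.23e-08 and 3.19e-09), as did edgeR with no filter on low counts (0.0244, 0.0295 and 0.0281). In contrast, limma-voom called none of the 3 (adjusted p = 0.0736, 0.0734 and 0.0623). Over the edgeR fits without 1 library their adjusted p reached 0.383, 0.383 and 0.292. Among all genes it tested, DESeq2 called 0.983% lower. The genes nearest to IL15 and IL15RA were picked on profiles that hold the group difference. Falls of about that size were thus part of the choice, and these calls are no separate result.

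For IL18 the nearest profiles were those of GOLGA3, a Golgi protein gene (0.0581), the importin gene IPO13 (0.0619) and the mitochondrial carrier gene SLC25A29 (0.0655). For IL18BP they were SNX16, a sorting nexin gene (0.0294), BLZF1 (0.0353) and CDC42SE1 (0.0401). IL18 and IL18BP were 0.221 apart, and each was 0.710 to 0.788 from IL15 and IL15RA. None of these 6 nearest genes was past the threshold, and their log2 fold changes lay between −0.32 and −0.17. Profiles with small group differences have small distances to many genes, so distances are not comparable between the axes.

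Apart from IL15RA, no signalling partner of the IL-15 axis was past the threshold with edgeR. The list of IL-15 receptor and signalling genes had 11 of 12 members tested, with a median log2 fold change of −0.29 against −0.0175 over all tested genes. Past the threshold, 1 (IL15RA) was lower and 0 were higher, against 0.112% and 0.0149% of all tested genes. STAT3, a transcription factor activated by many cytokine receptors, had 173, 187 and 164 CPM in IRF1-KO and 209, 218 and 209 CPM in WT (log2 fold change −0.28 ± 0.10, SE; edgeR quasi-likelihood adjusted p = 0.433). JAK3, the kinase bound to the common gamma chain, had 5.55, 6.56 and 4.38 CPM in IRF1-KO and 8.43, 5.82 and 12.5 CPM in WT (−0.70 ± 0.31; adjusted p = 0.559). The STAT3 groups did not overlap, and the JAK3 groups did. In this list 4 of the 11 tested genes, IL15 and IL15RA among them, had every IRF1-KO library below every WT library. The share over all tested genes was 6.75%. The opposite order was shown by 0 of the 11, against 8.03% of all tested genes. The receptor chains that signal in lymphocytes, named outside the rule and chosen after their values were seen, were scarce. IL2RB had 11 counts in all IRF1-KO libraries together and 4 in all WT libraries and was not tested, and IL2RG averaged 1.57 ± 0.283 CPM in IRF1-KO and 2.34 ± 0.617 CPM in WT (SD, n = 3 each).

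Genes of IL-18 reception also had no member past the threshold with edgeR. Of 12 listed genes 11 were tested, with a median log2 fold change of −0.14, and with p below 0.05 before adjustment edgeR had 1 lower and 1 higher, against 3.75% lower and 5.39% higher over all genes. DESeq2 called 0. MYD88, the adaptor of interleukin-1 family and Toll-like receptors, had 28.1, 33.8 and 30.7 CPM in IRF1-KO and 43.1, 45.6 and 37.5 CPM in WT (−0.45 ± 0.13, SE; adjusted p = 0.305). IRAK1, a kinase of that pathway, had 298, 274 and 310 CPM in IRF1-KO and 178, 174 and 251 CPM in WT (0.55 ± 0.16; adjusted p = 0.312), and with the correction for GC content its value was 0.32. Groups did not overlap for either gene. In this list 2 of the 11 tested genes, IL18BP among them, had every IRF1-KO library below every WT library. The opposite order was shown by 1. The shares over all tested genes were 6.75% and 8.03%. The receptor chain IL18R1, also chosen after its values were seen, averaged 4.14 ± 1.28 CPM in IRF1-KO and 4.96 ± 2.61 CPM in WT (SD, n = 3 each), and its partner chain IL18RAP had 4 counts in IRF1-KO and 2 in WT in all and was not tested.

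Of 15 genes of IL-18 maturation, 10 were tested, with a median log2 fold change of −0.45 against −0.0175 over all tested genes. With edgeR 0 were past the threshold and 4 were lower with p below 0.05 before adjustment, against 3.75% of all genes. DESeq2 called 2 lower, against 0.983% of all genes. CASP1, the protease that cuts the IL-18 precursor, had 0.366, 0.524 and 0.187 CPM in IRF1-KO and 2.96, 3.75 and 5.82 CPM in WT, or 26 counts in IRF1-KO and 244 in WT over the 3 libraries. No IRF1-KO library came near a WT library, and the log2 fold change was −3.52 ± 0.48 (SE; edgeR quasi-likelihood adjusted p = 0.0555). Over the 6 edgeR fits without 1 library the adjusted p ranged from 0.0446 to 0.283, and only the fit without WT replicate 3 was past the threshold. The limma-voom fit did not call CASP1 (adjusted p = 0.0743), whereas edgeR with no filter on low counts did (adjusted p = 0.0281). CASP4, a related inflammatory caspase, had 44.0, 54.8 and 52.7 CPM in IRF1-KO and 73.8, 69.6 and 75.2 CPM in WT (−0.53 ± 0.12; adjusted p = 0.179). NLRP1, an inflammasome sensor, had 4.15, 6.88 and 3.93 CPM in IRF1-KO and 7.11, 13.2 and 10.4 CPM in WT (−1.03 ± 0.31; adjusted p = 0.336). DESeq2 called CASP1 and CASP4 (adjusted p = 1.6e-07 and 0.0132).

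Other ligands and receptors of the 2 cytokine families were mostly at low levels. Of 21 genes of the IL-1 family 11 were tested, with 0 past the threshold by edgeR or DESeq2 and, before adjustment, 0 lower and 1 higher with p below 0.05 by edgeR. Their median log2 fold change was −0.26 against −0.0175 over all tested genes. With p below 0.05 before adjustment, edgeR had 3.75% of all tested genes lower and 5.39% higher. IL1RN, the interleukin-1 receptor antagonist gene, had 1.10, 2.23 and 0.225 CPM in IRF1-KO and 2.41, 11.0 and 0.625 CPM in WT. The groups overlap, and WT replicate 2 stands far above the other WT libraries. SIGIRR, a receptor that dampens interleukin-1 family signalling, had 8.60, 12.6 and 9.78 CPM in IRF1-KO and 6.07, 6.91 and 8.12 CPM in WT (0.55 ± 0.21, SE; adjusted p = 0.496), and with the correction for GC content its log2 fold change was 0.24. Genes above 65% GC had median deviations of 0.0967 to 0.463 in IRF1-KO libraries and −0.591 to −0.0953 in WT libraries on the log2 scale.

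Of 16 common gamma chain cytokines and receptors, 14 were in the table and 7 were tested. IL15RA was the 1 past the threshold with edgeR, where 0.112% of all tested genes were lower. The median was −0.68 against −0.0175 over all tested genes. DESeq2 called 3 lower (IL15, IL15RA and IL7), against 0.983% of all genes it tested. The same 3 had every IRF1-KO library below every WT library. IL7, a cytokine of lymphocyte survival and a relative of IL15, had 2.44, 1.99 and 1.12 CPM in IRF1-KO and 3.72, 4.57 and 5.72 CPM in WT (−1.34 ± 0.36, SE; edgeR quasi-likelihood adjusted p = 0.258); the groups did not overlap and DESeq2 gave an adjusted p of 0.0471. IL7R, its receptor, had 8.23, 4.54 and 14.0 CPM in IRF1-KO and 5.53, 2.01 and 2.40 CPM in WT (1.43 ± 0.52; adjusted p = 0.450), with overlap between the groups. Over the 5 lists together, 44 of 68 distinct genes were tested, the 4 described here included. Of these 44, 36 had negative values (7141 of all 13388 genes did), the median was −0.25 against −0.0175, and 11 had all IRF1-KO libraries below all WT libraries, against 6.75% of all genes. The opposite order was shown by 2 of the 44, against 8.03% of all genes. As the lists were chosen with earlier results of these data known, these shares are no independent result.

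**Figure D4:**
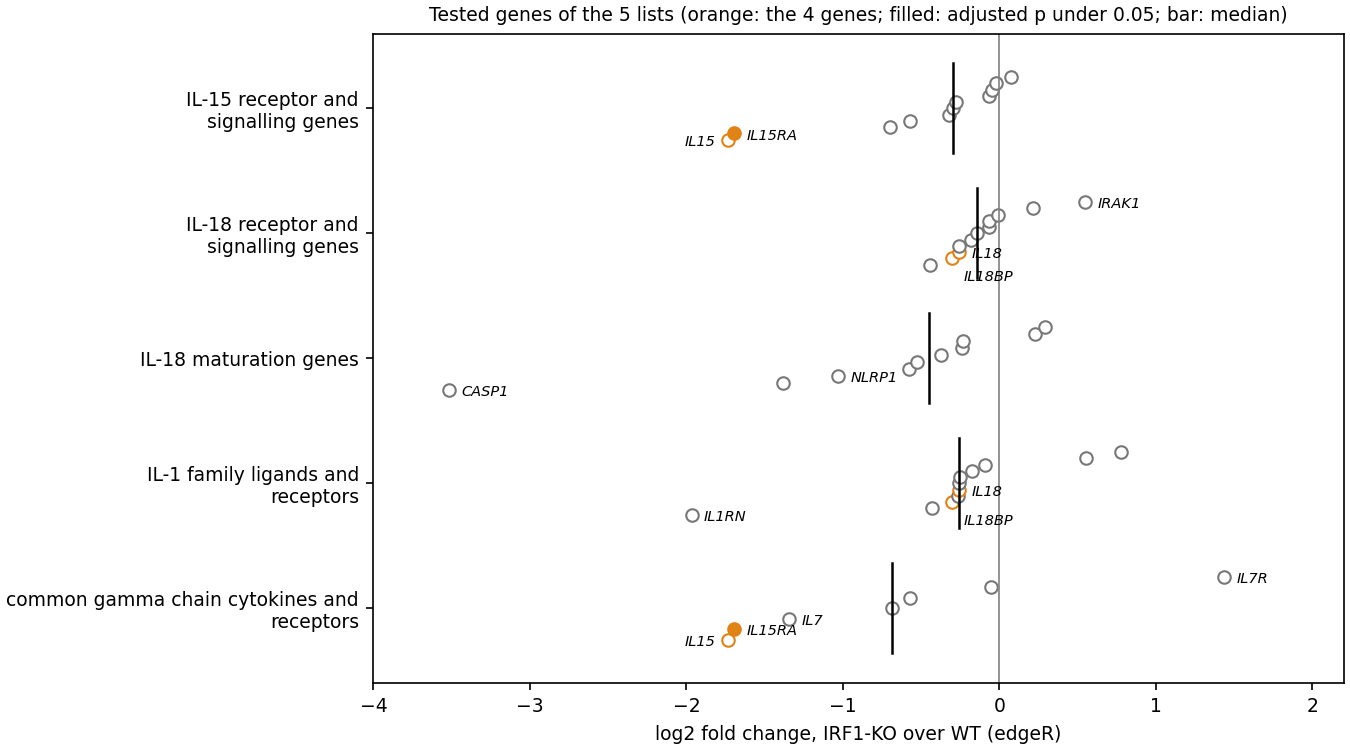
Log2 fold change of IRF1-KO over WT (horizontal axis) for every tested gene of the 5 lists; orange points are the 4 genes described here, filled points are past an adjusted p of 0.05, and black bars are list medians. IL15RA is the filled point, and CASP1 lies farthest to the left at −3.52.

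Of 15 leukocyte markers 4 were tested, and CD2, MS4A1 and TYROBP had no count in any library. The pan-leukocyte gene PTPRC had 5 counts in IRF1-KO and 5 in WT over the 3 libraries. The summed level of the list was 67.8 to 85.5 RPKM in IRF1-KO and 81.0 to 102 RPKM in WT, most of it CD68 and LYZ. LYZ, the lysozyme gene, had 13.4, 22.5 and 24.5 CPM in IRF1-KO and 28.8, 75.0 and 25.6 CPM in WT, which did not pass (adjusted p = 0.535, edgeR quasi-likelihood), and its part in the results was not tested. Of 9 fibroblast markers 5 were tested, with sums of 4.56 to 8.31 RPKM in IRF1-KO and 4.29 to 6.36 RPKM in WT. The sums hide differences within the groups. COL1A2 had 6.04, 0.419 and 0.375 CPM in IRF1-KO and 0.109, 0.707 and 7.35 CPM in WT. PDGFRA had 5.37, 0.908 and 3.90 CPM in IRF1-KO and 0.657, 0.544 and 5.53 CPM in WT. COL1A1 and ACTA2 instead had their lowest WT value in replicate 3, and LUM was highest in WT replicate 2. Of 6 endothelial markers 2 were tested, with sums of 1.06 to 1.26 RPKM in IRF1-KO and 0.785 to 1.07 RPKM in WT.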

How the data were processed

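The authors deposited raw counts per gene, with exon coordinates and lengths in the layout of featureCounts. GRCh38, featureCounts 0.6.1 and edgeR 3.2.2 are named per the submitters' processing notes. Neither aligner nor annotation nor strand setting is given in the sources used here. Symbols came from a table of current names for 19342 identifiers.

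Counts were fitted in R 4.3.3 with edgeR 4.0.16 (filterByExpr, TMM, robust quasi-likelihood F test, two-sided, Benjamini-Hochberg over all tested genes, threshold 0.05), after a test on simulated data. Standard errors and 95% intervals are those implied by the F statistic. RPKM are TMM-scaled CPM per kilobase of the deposited exon length. Of the motifs searched, 1 is not reported here. Ratios were taken per library and compared by exact permutation. Alternatives were upper-quartile or RLE factors, no filter or one of 5 CPM in 3 or more libraries, limma-voom 3.58.1, DESeq2 1.42.0, a replicate block, a GC correction (natural spline, 5 degrees of freedom, longest protein-coding GENCODE 29 transcript), leaving out each library, a threshold of 0.01 and pseudocounts of 1 and 0.01 RPKM. The block with the GC correction and the ratios across axes were added after the data were seen.

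Named were the 4 members, IRF1, overlapping genes, in each of 5 lists members past the threshold and the 3 others with the smallest p, and the 3 nearest profiles per member. Members and lists were chosen with earlier results of these data known.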

Additional observations from a re-analysis of the deposited data

How the results depend on the processing

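Direction held for IL15, IL15RA, IL18 and IL18BP in all 16 alternatives each, with ranges of −1.90 to −1.38, −1.83 to −1.58, −0.40 to −0.0983 and −0.37 to −0.21. The threshold of 0.01 is among these alternatives and reuses the main fit, so direction could not change there. IL15RA was not past the threshold with the replicate block (−1.68, adjusted p = 0.0509), with the block and the GC correction together (−1.67), at a threshold of 0.01 (−1.69), or without 4 of the 6 libraries. IL15 was past it with DESeq2 and no other alternative (−1.73). Across all genes, 17 were past the threshold; this was 31 with no filter, 332 with DESeq2, 31 with the replicate block, 7 at 0.01, 3 without IRF1-KO replicate 1 or 3, 5 without WT replicate 2 and 91 without WT replicate 3. Pathway list members past it numbered 1; this was 2 with no filter, 5 with DESeq2, 0 with the replicate block (also with the GC correction) and at 0.01, 0 without any 1 IRF1-KO library or WT replicate 2, and 2 without WT replicate 3. The causes were not tested.

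Deviations of same-numbered libraries had correlations of −0.0155, 0.253 and 0.0571. IRF1-KO replicates 2 and 3 correlated best with the WT library of their own number and replicate 1 did not. With 3 libraries per group, each centred on its group mean, these correlations cannot tell whether the numbers mark a shared batch. With the pairs as blocks, the IL15RA to IL15 and IL18BP to IL18 ratio differences were −0.15 and −0.0123, and UBE2L6 and PIK3AP1 were past the threshold (adjusted p = 0.0450 and 0.0258).

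The IL15RA to IL15 difference turned to 0.0121 and 0.0341 without IRF1-KO replicate 3 or WT replicate 2 (range over the fits without 1 library −0.35 to 0.0341), and was −0.63 with 1 RPKM added. The IL18BP to IL18 difference turned to 0.0560 with 1 RPKM added and ranged from −0.18 to 0.10 without 1 library. NUMA1, at 0.0178, turned to −0.0235 with the GC correction, −0.0249 with the block added and −0.00393 without WT replicate 2 (range over the fits without 1 library −0.00393 to 0.0725). Over the 24 other named genes, 352 of 381 alternatives kept direction and side of the threshold. Depth limits the precision of IL15, with 50 to 110 counts in IRF1-KO, and of CASP1, with 26 counts in all IRF1-KO libraries.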
